A study of Mus musculus with 30 samples.

Results

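The 2 deposited lists of regions marked by lysine crotonylation (Kcr) were compared, 1 from control and 1 from MS-275-treated neural stem and progenitor cells (NSPCs) of the mouse forebrain. The control list held 17669 peaks and the MS-275 list 5845, together 23514 of the 99413 peaks in the 6 NSPC lists of the series. Peaks of the lists were matched when they shared at least 1 bp, and each peak was assigned to the gene with the nearest end where that end lay within 1 kb. The cells came from C57BL/6 embryos at E13.5 and were grown as low-passage cultures with EGF and FGF. They received the solvent DMSO (control) or 1 µM MS-275 for 24 h, and both groups shared the culture medium. Chromatin immunoprecipitation was done with a pan-Kcr antibody, which reads crotonylation at any histone lysine it binds, in 1 library per treatment. RNA was measured in 4 control and 4 MS-275 libraries, and 4 libraries of cells given 10 mM crotonate shared the RNA fit. No difference between the peak lists has a replicate check, and the read depth behind each list is not given in the sources used here, so a lower depth or a stricter threshold and a loss of the mark cannot be told apart.

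Crotonylation is an acylation of lysine that neutralises its charge, as acetylation (Kac) does, and it is commonly found at the starts of active genes. Acyltransferases such as p300 can add it from crotonyl-CoA, and class I histone deacetylases can remove it. MS-275 (entinostat) inhibits class I deacetylases. NSPCs divide and can give rise to neurons and glia.

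The labelled cell type was checked on fixed marker genes. Summed TPM (relative transcript abundance, scaled to the same total per library) of 8 neural progenitor markers ran from 9628 to 10161 in control and from 13550 to 14221 with MS-275, with Vim and Fabp7 the most abundant. Those 2 of the 8 rose, 3 fell (Nes, Pax6 and Hes1), and the median log2 fold change over the 8 was -0.18. Over all tested genes 37.4% rose and 27.6% fell, with a median of 0.08. The 6 neuron markers summed to between 348 and 370 in control and between 367 and 392 with MS-275, of which Map2 held most, but 4 of the 6 rose (Tubb3, Dcx, Rbfox3 and Stmn2) and 1 fell (Elavl4), with a median log2 fold change of 0.95. The 6 astrocyte markers summed to between 97.9 and 114 in control and between 166 and 199.9 with MS-275, and the 6 oligodendrocyte lineage markers to between 29.2 and 38.7 and between 49.7 and 63.2. The lists of 6 microglial, 6 endothelial, 6 erythroid and 6 mesenchymal markers summed to at most 2.32, 7.54, 1.51 and 24.4 in any of the 8 libraries, and Aif1, Hbb-bt, Hbb-bs and Hbb-bh1 were at 0 in all 8. The endothelial markers summed to between 1.66 and 2.25 in control and between 5.21 and 7.54 with MS-275. By replicate number, the mesenchymal markers summed to 14.8, 2.69, 9.27 and 1.28 in control. With MS-275 they summed to 24.4, 7.89, 15.3 and 6.06. The part of cells of other types in the differences below was not tested. In these bulk samples, fewer cells of a type and less RNA per cell cannot be told apart.

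The bases before a start are shown for 5 genes that stand for the patterns described below, from RefSeq on GRCm38.p6, 250 bases 5′ to 3′ on the gene's strand and ending 1 base before a start. Capitals mark bases inside a Kcr peak of the list named for each gene. Fabp3 (chr4:130308488-130308737, plus strand, MS-275 list) had a peak in both lists, with 32 of the 250 bases in the MS-275 peak and 66 in the control peak.
Fabp3: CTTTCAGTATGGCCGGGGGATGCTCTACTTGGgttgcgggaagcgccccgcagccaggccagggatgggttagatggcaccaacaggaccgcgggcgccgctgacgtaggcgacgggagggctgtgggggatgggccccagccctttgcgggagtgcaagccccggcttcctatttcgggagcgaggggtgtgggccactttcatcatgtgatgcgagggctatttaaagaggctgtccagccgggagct
Birc5 (chr11:117848987-117849236, plus strand, MS-275 list), chosen after its values were seen, also had a peak in both lists, which covered 91 and 96 of these bases.
Birc5: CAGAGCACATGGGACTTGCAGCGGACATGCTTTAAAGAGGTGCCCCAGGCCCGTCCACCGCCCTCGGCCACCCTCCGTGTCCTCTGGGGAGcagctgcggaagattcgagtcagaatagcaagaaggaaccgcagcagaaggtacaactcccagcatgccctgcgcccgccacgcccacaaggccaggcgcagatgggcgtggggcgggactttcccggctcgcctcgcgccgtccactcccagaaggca
Anks1b (chr10:89873259-89873508, plus strand, MS-275 list) had 109 bases inside a MS-275 peak and none in a control peak, before a start that lies inside the gene.
Anks1b: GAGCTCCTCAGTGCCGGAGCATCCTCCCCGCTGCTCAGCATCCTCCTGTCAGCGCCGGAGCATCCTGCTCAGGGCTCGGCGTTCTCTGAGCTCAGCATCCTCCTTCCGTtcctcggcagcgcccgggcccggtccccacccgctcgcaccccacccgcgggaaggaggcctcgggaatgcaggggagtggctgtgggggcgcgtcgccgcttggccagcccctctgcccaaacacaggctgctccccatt
Mdfi (chr17:47833292-47833541, minus strand, MS-275 list) has no capitals, because its MS-275 peak lay upstream of the window, before this start, which also lies inside the gene.
Mdfi: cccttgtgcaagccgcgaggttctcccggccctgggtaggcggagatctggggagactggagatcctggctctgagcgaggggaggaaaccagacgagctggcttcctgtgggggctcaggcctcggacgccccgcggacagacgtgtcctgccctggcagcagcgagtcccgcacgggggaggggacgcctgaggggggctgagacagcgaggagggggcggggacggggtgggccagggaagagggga
Cenpa (chr5:30666636-30666885, plus strand, control list) had 14 bases inside a control peak.
Cenpa: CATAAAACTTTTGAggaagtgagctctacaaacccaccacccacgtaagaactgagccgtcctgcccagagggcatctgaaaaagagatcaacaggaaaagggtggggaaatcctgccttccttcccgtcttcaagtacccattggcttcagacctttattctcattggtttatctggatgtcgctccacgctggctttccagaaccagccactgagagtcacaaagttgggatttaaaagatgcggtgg

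The MS-275 list held fewer Kcr peaks than the control list and kept a minority of its sites. Of the 17669 control peaks, 3014 were overlapped by a MS-275 peak, which is 17.1% (95% Wilson interval 16.5 to 17.6). Of the 5845 MS-275 peaks, 2974 were overlapped by a control peak, which is 50.9% (49.6 to 52.2). The intervals cover counting error only. The remaining 14655 control peaks and 2871 MS-275 peaks are called control only and MS-275 only. The lists covered 5.91 Mb and 1.84 Mb and shared 0.744 Mb, which is 12.6% of the control length and 40.4% of the MS-275 length. Median widths were alike, at 278 bp in control and 281 bp with MS-275, but the narrowest peak was 172 bp in control and 227 bp with MS-275, and the widest 2365 bp and 1147 bp.

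Overlapped MS-275 peaks were mostly narrower than their control partners. They had a median width of 294 bp, against 401 bp for the summed width of the control peaks that each touched (137 touched 2 or more) and 368 bp for single overlapped control peaks. Against the summed width 1993 of the 2974 were narrower and 971 wider. Among MS-275-only peaks, 855 lay within 1 kb of a control peak and 1435 lay over 10 kb from any.

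Wide control peaks were more often overlapped. The share rose from 9.22% of 3708 control peaks under 200 bp to 63.3% of 188 peaks of 1000 bp or more. The same order held for the MS-275 list, from 43.4% of 1718 peaks of 200 to below 250 bp to 76.9% of 52 peaks of 700 to below 1000 bp, and 4 of 4 at 1000 bp or more. A wider peak also has more bases in which to meet another, and its part in this order was not tested.

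**Figure D1:**
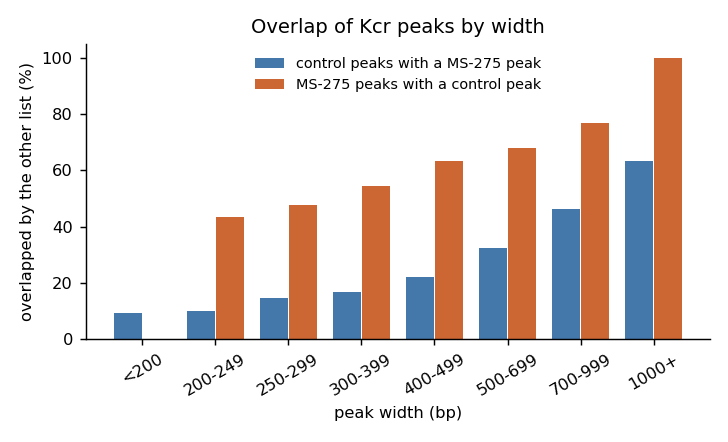
Percent of Kcr peaks that overlap a peak of the other list (vertical axis) by peak width in bp (horizontal axis), with 1 library per list and no error bars. Blue bars are control peaks, from 9.22% at the narrowest to 63.3% at the widest, and orange bars are MS-275 peaks, of which none was under 200 bp.

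The single widest MS-275-only peak (chr7:118447496-118448488, 993 bp) lay 95 bp from an end of Syt17, a synaptotagmin family gene, whose RNA rose from a mean of 1.75 to 5.41 TPM (log2 fold change 1.20, limma adjusted p 1.05e-05). Next in width (820 bp) was a peak 28135 bp from Sez6l, its nearest gene, which rose from 9.01 to 20.7 TPM. That is past the 1 kb limit for assignment, and Sez6l had assigned peaks in both lists. The third widest (763 bp) had Sept4, a septin gene, as its nearest gene at 11191 bp, and Sept4 RNA rose from 11.9 to 70.3 TPM. The fourth lay 374 bp from Cpne7, which had assigned peaks in both lists and was at 59.3 and 56.7 TPM (adjusted p 0.573). The gene nearest to the fifth, the splicing factor gene Srsf10, fell from 179 to 140.3 TPM (adjusted p 3.56e-07). Srsf10 lay 3758 bp from that peak and had an assigned peak in the control list only. The widest control-only peak (chr13:60175632-60177307, 1676 bp) lay 228 bp from Gas1, a growth arrest gene, whose RNA fell from 47.2 to 32.1 TPM. Cdk2ap1, 568 bp from a control-only peak of 1484 bp, fell from 467 to 202 TPM. Midn, nearest to one of 1668 bp but 4464 bp from it, was at 102 and 105 TPM (adjusted p 0.538). Of the other 2 of these 5, Ints6 fell from 27.5 to 20.1 TPM (adjusted p 0.0399). Sema6a, a semaphorin gene 2770 bp from its peak and with no assigned peak, rose from 21.0 to 24.4 TPM (adjusted p 0.00199).

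Along the chromosomes the MS-275 list held between 0.273 (chromosome 16) and 0.401 (chromosome 15) peaks per control peak on the autosomes. On the X chromosome it held 2 peaks against 87, a ratio of 0.0230. The Kac lists of the same cells held 248 X peaks in control and 8 with MS-275. Control-only peaks were densest at 88 to 89 Mb of chromosome 3, with 66 in 1 Mb against a median of 5 over the windows that held any. MS-275-only peaks were densest at 98 to 99 Mb of chromosome 11, with 22 against a median of 2, where the genes nearest to the most of them included the nuclear receptor genes Rara, Thra and Nr1d1. The gene with the most MS-275-only peaks nearest to it was Irf2bp2, with 13, and its RNA was at 16.3 TPM in control and 16.8 with MS-275 (log2 fold change 0.04, adjusted p 0.615).

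MS-275-only peaks lay farther from genes than the peaks of either other class. An end of a gene lay within 1 kb of 31.2% of them, against 61.8% of control-only peaks and 56.8% of control peaks that were overlapped. Inside genes and over 1 kb from the ends were 41.0%, 26.6% and 28.6%, and outside genes 27.7%, 11.6% and 14.6%. The median distance to a gene end was 4.22 kb for MS-275-only, 0.405 kb for control-only and 0.595 kb for overlapped control peaks. The centre lay within 500 bp of a RefSeq start in 18.0%, 48.4% and 43.1%.

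Around RefSeq starts both lists showed a dip at the start with a higher flank downstream. Over 10903 tested genes with a start in the table, the control list covered 20.7% of starts 300 bp upstream, 8.11% at the start and 40.7% at 200 bp downstream. The MS-275 list covered 3.45% at 450 bp upstream, 1.94% at the start and 6.57% at 250 bp downstream. Over the 301 genes with a peak in the MS-275 list only, which were chosen by that list, it covered 16.9%, 16.3% and 35.2% at 300 bp upstream, at the start and at 200 bp downstream.

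**Figure D2:**
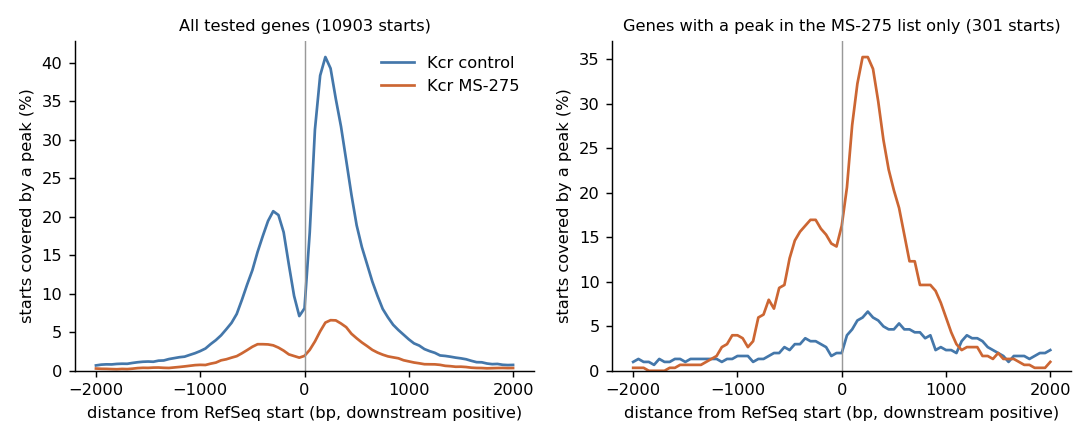
Percent of gene starts covered by a Kcr peak (vertical axes, which differ in range) by distance from the RefSeq start in bp (horizontal axes, downstream positive), for all 10903 tested genes with a start and for the 301 with a peak in the MS-275 list only. In the left panel the control list (blue) reaches 40.7% and the MS-275 list (orange) 6.57%, both downstream of the start.

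Most control Kcr sites were also Kac sites, and most MS-275-only Kcr sites were not. The Kac control list overlapped 90.0% of overlapped control peaks, 78.8% of control-only peaks and 27.5% of MS-275-only peaks. The Kac MS-275 list overlapped 44.6%, 18.1% and 19.5%. Of the 2871 MS-275-only peaks, 1756 (61.2%) met neither Kac list, 556 met the Kac control list alone, 326 the Kac MS-275 list alone and 233 both. Over whole lists, 80.7% of Kcr control peaks overlapped a Kac control peak and 59.5% of Kac control peaks the reverse, while with MS-275 the shares were 31.1% and 24.4%. The Kac lists themselves showed a like drop, from 23427 to 7555 peaks, with 20.0% of control peaks overlapped by MS-275 and 63.1% the reverse. The Kcr crotonate list, of 23301 peaks, overlapped 84.8% of overlapped control peaks, 63.8% of control-only and 40.5% of MS-275-only peaks.

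Of 38568 genes with a position, 1765 had a peak in both lists, 536 in the MS-275 list only, 6037 in the control list only and 30230 in neither. RNA was tested for 13903 of them, those at 1 TPM or more in at least 4 of 12 libraries, with limma on log2(TPM + 1) and Benjamini-Hochberg adjustment over all 14857 genes tested. These numbers were 1612, 398, 5561 and 6332 by class. The filter is passed more easily by a gene that is high in 1 group, so the 138 MS-275-only genes that were not tested are left out of every share below. Of the 536 genes, 17 had a MS-275 peak overlapped by a control peak assigned to another gene, and 386 had their nearest control peak over 10 kb away.

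Genes with a control peak were the more abundant ones. Median control TPM over tested genes was 31.2 for control only, 28.2 for both, 8.81 for neither and 5.51 for MS-275 only. Tested genes were put in 10 equal bins by control TPM. From the lowest bin to the highest, the share with a control peak went from 11.7% to 74.7%, and the share with a MS-275 peak from 7.91% to 17.8%. The MS-275-only share was highest in the second bin, at 6.26%, and lowest in the last, at 0.935%.

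**Figure D3:**
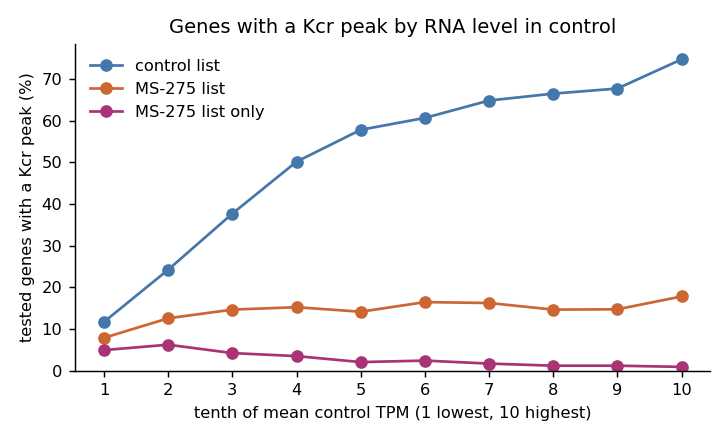
Percent of tested genes with a Kcr peak (vertical axis) by bin of mean control TPM (horizontal axis, 10 bins of 1390 or 1391 genes). The control list (blue) goes from 11.7% to 74.7%, the MS-275 list (orange) from 7.91% to 17.8%, and genes in the MS-275 list only (purple) from 4.96% to 0.935%.

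Genes with a Kcr peak in the MS-275 list only mostly had more RNA with MS-275. Of 398 tested, 260 rose (65.3%, 95% Wilson interval 60.5 to 69.8) and 41 fell (10.3%, 7.68 to 13.7), with a median log2 fold change of 0.67. Over all tested genes 37.4% rose and 27.6% fell (65.1% in either direction), with a median of 0.08. Genes with a peak in both lists stood near these shares, with 589 higher (36.5%), 519 lower (32.2%) and a median of 0.02. Control-only genes fell more often than they rose, with 1653 higher (29.7%), 2138 lower (38.4%) and a median of -0.05, but they were abundant, and all tested genes in the same bins of control TPM (10 equal bins) had 33.1% higher and 35.8% lower. Genes with neither had 2891 higher (45.7%) and 1303 lower (20.6%). With libraries scaled by median of ratios, 4916 genes rose and 4840 fell in place of 5561 and 4107, the median of all genes moved from 0.08 to 0.01, and the median of genes in both lists turned to -0.05.

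Changes of 2-fold or more were also unevenly spread. In the MS-275-only class 142 genes (35.7%) rose 2-fold or more. The shares were 17.7% of neither, 6.33% of both, 4.03% of control only and 10.9% of all tested genes. Neither was the class nearest in median control TPM, at 8.81 against 5.51 for MS-275 only. These 2-fold shares were not weighted by control TPM. A fall of 2-fold or more was found for 1 MS-275-only gene, 23 in both, 165 in control only and 165 in neither, and for 2.53% of all tested. All 4 MS-275 libraries lay above all 4 controls for 244 of the 398 MS-275-only genes, against 33.6% of all tested, and below for 35, against 24.9%. The class median in single MS-275 libraries, against the control mean, ran from 0.63 to 0.70 for MS-275 only, from 0.00 to 0.05 for both and from -0.07 to -0.04 for control only.

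Low genes rose more often than abundant ones, and MS-275-only genes were low. All tested genes, weighted to the same bins of control TPM, had 46.7% higher and 18.3% lower, beside 65.3% and 10.3% in the class. With bins of the mean over the 8 libraries these were 43.4% and 21.9%. Genes matched in this way to those with both peaks had 34.2% higher and 34.4% lower by control TPM, beside 36.5% and 32.2%. Read from the RNA side, 9.0% of the 1586 genes 2-fold or more higher were MS-275 only, 14.1% were control only and 70.5% had neither peak. The shares over all tested genes with a position were 2.86%, 40.0% and 45.5%.

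**Figure D4:**
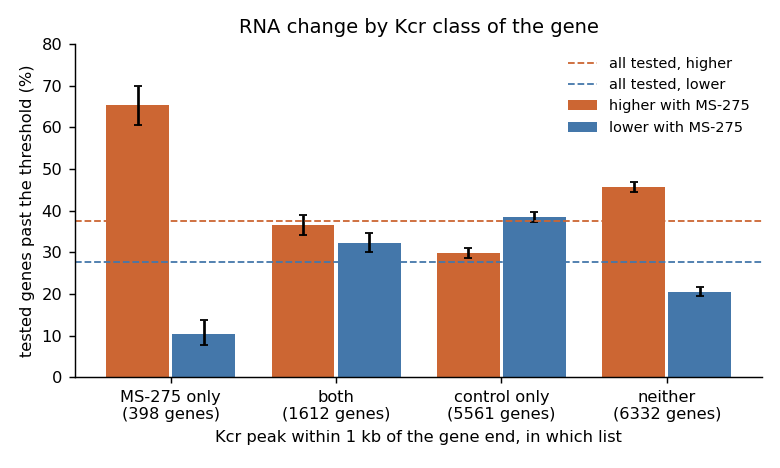
Percent of tested genes whose RNA was higher (orange) or lower (blue) with MS-275 (vertical axis, limma adjusted p under 0.05) by Kcr class (horizontal axis), with 95% Wilson intervals as error bars and dashed lines at 37.4% and 27.6% for all tested genes. The MS-275-only class stands at 65.3% higher and 10.3% lower.

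Peaks inside gene bodies gave the same order. Genes with 0, 1, 2 and 3 or more MS-275-only peaks in the body or within 1 kb of it were higher in 36.7%, 54.5%, 62.4% and 66.3% of cases. Median gene length rose with the count, from 21.4 to 32.7, 94.5 and 106 kb. Median control TPM was 20.1, 12.8, 15.3 and 11.5. The part of length and of RNA level was not tested. For control-only peaks the shares were 49.5%, 33.3%, 27.3% and 31.9%, at a median control TPM of 6.69, 26.9, 32.3 and 35.6. Genes in the MS-275 list only for both Kcr and Kac numbered 56, of which 41 rose (73.2%) and 3 fell (Epb41, Cacng4 and Tfap4). The share was 73.3% of the 150 MS-275-only Kcr genes with no Kac peak and 53.2% of the 139 with a Kac peak in control only. With Kac peaks in both lists, 35 of 53 MS-275-only Kcr genes rose. Median control TPM was 2.80 for the 56 genes, 2.89 for the 150, 11.6 for the 139 and 10.1 for the 53. Genes with a Kac peak in the MS-275 list only and no Kcr peak also mostly rose. Of these 140 genes, 105 rose and 6 fell, at a median control TPM of 3.32. The part of Kac and of RNA level in these shares was not tested.

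Among MS-275-only genes the largest rise was that of Mdfi, which encodes an inhibitor of MyoD family factors. Mdfi was at 0.904, 0.364, 1.38 and 1.70 TPM in control and at 20.8, 27.6, 28.3 and 16.9 TPM with MS-275. All 4 treated libraries lay above all controls (log2 fold change 3.56, SE 0.22, adjusted p 2.91e-08), and its peak (chr17:47833712-47834039) lay 652 bp inside the gene's end. Prkcd, the protein kinase C delta gene, was at 0.735, 1.505, 0.748 and 1.20 TPM in control and at 15.2, 14.9, 15.7 and 14.0 TPM with MS-275 (log2 fold change 2.98, SE 0.14, adjusted p 2.67e-09). Its peak at chr14:30625536-30625997 lay 417 bp from the gene's end, and Prkcd was among the 56 genes in the MS-275 list only for both marks. Kdelr3, a receptor that returns proteins to the endoplasmic reticulum, was at 6.39, 6.18, 8.33 and 7.37 TPM in control and at 56.6, 52.3, 58.0 and 54.4 TPM with MS-275. Exoc3l4 rose from 0.927 ± 0.700 to 13.6 ± 2.10 TPM (SD, n = 4 each).

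The largest falls in that class were smaller. Anks1b, a gene of a synaptic scaffold protein, was at 27.0, 38.1, 36.4 and 39.3 TPM in control and at 16.8, 16.9, 11.0 and 14.3 TPM with MS-275, with no overlap between groups (log2 fold change -1.20, SE 0.16, adjusted p 2.03e-05). Meaf6, a subunit of acetyltransferase complexes, fell from 72.9 ± 5.37 to 38.6 ± 2.65 TPM, and Magi1, a junction scaffold gene, from 50.9 ± 2.15 to 28.0 ± 3.38 TPM. Zbed3 fell from 36.4 ± 1.42 to 20.3 ± 0.850 TPM. The class of 3 of these 4 was not firm, since Anks1b, Magi1 and Zbed3 had a peak in both lists when any RefSeq start within 1 kb was counted, and the MS-275 peak of Zbed3 was overlapped by a control peak assigned to another gene.

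**Figure D5:**
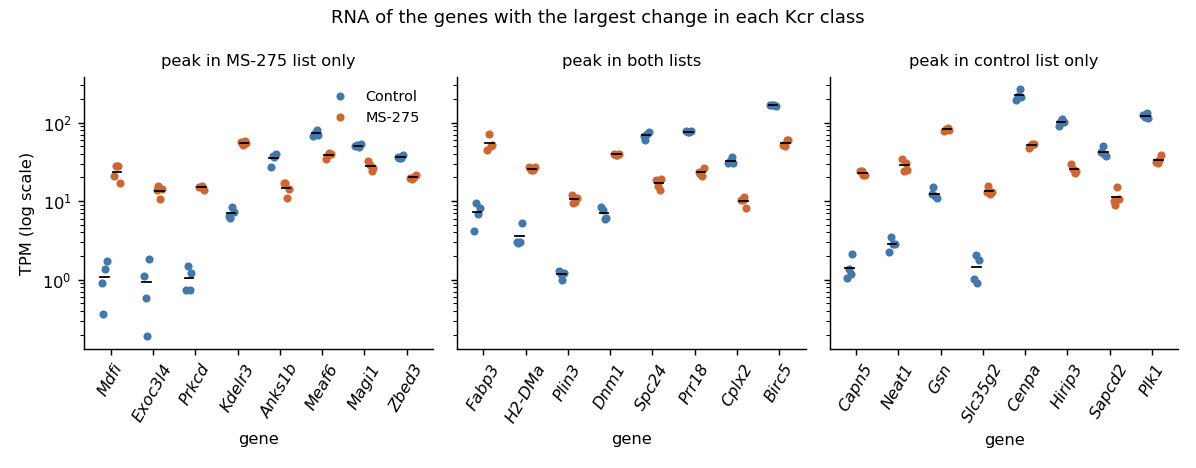
TPM on a log axis (vertical) in each of 4 control (blue) and 4 MS-275 (orange) libraries for the genes with the largest changes in each Kcr class (horizontal), with black bars at the means. The groups do not overlap for any of the 24 genes, by the rule that chose them, and Mdfi goes from a mean of 1.09 to 23.4 TPM.

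With a peak in both lists, Fabp3, a fatty acid-binding protein gene, was at 4.22, 9.38, 6.88 and 8.27 TPM in control and at 45.2, 71.8, 50.8 and 52.3 TPM with MS-275. All treated libraries lay above the controls (log2 fold change 2.80, SE 0.21, adjusted p 1.65e-07), and its peaks overlapped at chr4:130308196-130308553 in control and chr4:130308133-130308519 with MS-275. Plin3, a lipid droplet coat gene, rose from 1.17 ± 0.127 to 10.5 ± 1.22 TPM, and Dnm1, the neuronal dynamin gene, from 7.05 ± 1.16 to 39.4 ± 0.757 TPM. H2-DMa, of antigen processing, rose from 3.56 ± 1.12 to 26.0 ± 1.28 TPM, but its control peaks, between 34119674 and 34120967 of chromosome 17, lie inside Brd2 as well, so the gene they belong to is uncertain. Birc5, the survivin gene of mitosis and cell survival, was at 165, 167, 169 and 160.2 TPM in control and at 51.6, 49.9, 60.1 and 60.5 TPM with MS-275 (log2 fold change -1.56, SE 0.07, adjusted p 1.37e-09). Birc5 kept nearly the same peak, chr11:117848449-117849082 in control and chr11:117848428-117849077 with MS-275. Spc24, a kinetochore gene, fell from 68.7 ± 6.63 to 16.8 ± 2.48 TPM, Prr18 from 76.6 ± 1.33 to 23.3 ± 2.37 TPM and Cplx2, a complexin gene of vesicle release, from 32.3 ± 2.74 to 9.98 ± 1.31 TPM.

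With a peak in control only, Cenpa, the centromeric histone H3 variant gene, was at 195, 219, 264 and 210.2 TPM in control and at 46.9, 52.4, 53.8 and 52.9 TPM with MS-275. The groups were apart (log2 fold change -2.08, SE 0.08, adjusted p 1.01e-09), and its control peak was chr5:30666461-30666649. Plk1, a mitotic kinase gene, fell from 122 ± 7.45 to 33.4 ± 3.65 TPM, Hirip3 from 101 ± 7.62 to 25.6 ± 3.05 TPM and Sapcd2 from 42.5 ± 5.19 to 11.2 ± 2.82 TPM. Control-only genes also rose: Gsn, which encodes the actin-severing protein gelsolin, was at 12.4, 15.1, 11.7 and 10.8 TPM in control and at 78.1, 83.7, 85.6 and 81.0 TPM with MS-275 (log2 fold change 2.63, SE 0.09, adjusted p 3.45e-10). Neat1, a nuclear long noncoding RNA, rose from 2.86 ± 0.539 to 28.5 ± 4.83 TPM, with a peak in both lists by a limit of 5 kb or by gene body, and Slc35g2 from 1.44 ± 0.562 to 13.4 ± 1.45 TPM. Capn5, a calpain gene, rose from 1.43 ± 0.468 to 23.0 ± 1.60 TPM, but a MS-275 peak overlapped its control peak, and with protein-coding genes alone it had a peak in both lists.

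The targets of MS-275 are among the class I deacetylases. Hdac1, with a peak in both lists, was at 107, 115, 113 and 116 TPM in control and at 187, 192, 197 and 180.2 TPM with MS-275 (log2 fold change 0.74, SE 0.04, adjusted p 7.81e-09). Hdac2, also with both, was at 233 ± 7.48 and 227 ± 5.31 TPM (adjusted p 0.485). Hdac3, with both, was at 84.6 ± 3.63 and 92.1 ± 5.53 TPM, and its call (adjusted p 0.0402) was lost in 9 of 14 alternatives. Hdac8, with neither, was at 13.3 ± 2.23 and 13.3 ± 1.43 TPM. Of 19 class I deacetylase and corepressor genes, 8 had both peaks, 6 control only and none MS-275 only, with 5 higher and 8 lower. Over all tested genes 37.4% were higher and 27.6% lower, and the class shares were 11.6% both, 2.86% MS-275 only, 40.0% control only and 45.5% neither.

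Cell division genes fell with and without Kcr peaks. All 25 tested genes of G2, M phase and mitosis fell, of which 2 had a peak in both lists, 10 in control only and 13 in neither. Over all tested genes 37.4% rose and 27.6% fell. Of tested genes with a position, 11.6% had both peaks, 2.86% MS-275 only, 40.0% control only and 45.5% neither. Kif11, a spindle motor gene with a control-only peak, fell from 109 ± 1.17 to 36.2 ± 2.35 TPM. Of 24 genes of the G1 to S step and replication, 22 fell and 1 rose, Ccnd2, the cyclin D2 gene and the only 1 of them with a MS-275-only peak. Ccnd2 was at 721, 699, 711 and 711 TPM in control and at 1081, 1108, 1095 and 1065 TPM with MS-275. Its class was not firm, since it had a peak in both lists with a limit of 5 kb or by gene body. Mcm7, of the replicative helicase, fell from 202 ± 4.53 to 82.3 ± 2.71 TPM.

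Of the listed genes 9 had a MS-275-only peak, 7 of them neuronal or synaptic, and the 9 rose, in a class in which 65.3% of tested genes rose and which holds 2.86% of all tested genes. The lists were not tested against each other, and over all tested genes 37.4% rose and 27.6% fell. Of 21 genes of neuronal differentiation and cytoskeleton 3 were MS-275 only, and 17 of 20 tested rose and 2 fell. Tubb3, the neuronal beta-tubulin gene, rose from 11.8 ± 1.16 to 29.0 ± 2.05 TPM, Gap43 went from a mean of 622 to 685 TPM and Bcl11b from 2.14 to 2.77 TPM. Of 20 genes of synapse and excitability 4 were MS-275 only, and 14 rose and 4 fell. Sv2a, a synaptic vesicle gene, rose from 20.5 ± 1.33 to 59.9 ± 6.68 TPM, Kcnt1, a potassium channel gene, from 1.87 to 14.0 TPM, Syt1 from 1.43 to 6.75 TPM and Nlgn1 from 14.4 to 18.5 TPM. The other members were Ccnd2 and Gadd45b, and the call of Gadd45b (3.08 ± 0.912 to 4.62 ± 0.806 TPM, adjusted p 0.0272) was lost in 4 alternatives (its peaks were in both lists with a limit of 5 kb), those without low-value filter, Control replicate 2, Control replicate 3 or MS-275 replicate 2.

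Other lists moved in RNA with few or no MS-275 peaks. They are read beside all tested genes, of which 37.4% rose and 27.6% fell. Of tested genes with a position, 11.6% had both peaks, 2.86% MS-275 only, 40.0% control only and 45.5% neither. All 19 tested interferon and antigen presentation genes rose, with 3 of 23 in control only and 20 in neither. Of 17 REST target and granin genes, 12 of 15 tested rose and none fell, with 3 control only and 14 neither. Of 19 tested imprinted genes 15 rose and none fell, and 20 of 21 positioned had neither peak. All 21 cholesterol synthesis genes fell, 11 of them control only, 2 both and 8 neither. Hmgcs1, the cytosolic HMG-CoA synthase gene with both peaks, fell from 873 ± 69.2 to 711 ± 96.9 TPM (limma adjusted p 0.0156, log2 fold change -0.30), and its groups overlapped. Fatty acid oxidation and PPAR target genes rose in 17 of 20 tested and 1 fell, with 7 of 21 control only and 2 both.

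A peak in both lists was common among progenitor genes, and not only among them. Of 20 radial glia and neural stem cell genes 8 had both peaks, 7 control only and 5 neither, and 9 rose and 7 fell, where 37.4% and 27.6% of all tested genes did. Both peaks were also found for 8 of 19 class I deacetylase and corepressor genes and 4 of 12 housekeeping genes. Of tested genes with a position, 11.6% had both peaks, 2.86% MS-275 only, 40.0% control only and 45.5% neither. In the highest bin of control TPM 16.9% had both. Sox2 (both) was at 273 and 270.1 TPM, Notch1 (both) rose from 56.3 to 94.5 TPM and Nes (control only) fell from 367 to 254 TPM. Olig1, with both peaks, rose from 1140.3 ± 83.2 to 2300.3 ± 116 TPM. Of 17 acyltransferase and crotonyl-CoA enzyme genes, 3 had both peaks and 7 control only, with 2 higher and 8 lower. Of 15 genes for readers of acylated lysine 11 were control only and 11 fell, among them Brd2, from 165 ± 6.77 to 114 ± 3.88 TPM, which had a peak in both lists by gene body or RefSeq start.

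Median promoter base composition differed little between genes with peaks. Over 300 bases around the start, median GC content was 64.3% for both, 63.7% for MS-275 only, 62.3% for control only and 59.3% for neither, and the median number of CpG pairs was 24, 20, 23 and 18. At least 10 CpG pairs were found in 89.7%, 80.1%, 92.2% and 74.1% of these promoters, and in 83.6% over all tested genes with an entry. The letters GGGCGG, on either strand, were in 70.0%, 69.1%, 70.0% and 59.9% of them, in 65.5% of all 10903 tested genes with an entry and in 35.9% of all 27025 promoters in the table, which include genes that were not tested. The letters CCAAT, on either strand, were in 33.9%, 32.2%, 38.4% and 41.8%, in 39.2% of tested genes and in 37.9% of all promoters. A match describes these letters in this window and shows no binding.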

How the data were processed

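Peak lists of 2 Kcr libraries and TPM of 12 NSPC RNA libraries were used. The submitters' processing notes name Bowtie2 2.3.5.1 and MACS2 2.2.5 for ChIP, Salmon 1.0.0 and DESeq2 1.26.0 for RNA, and the build GRCm38. The lists hold positions only, and the threshold, any input or IgG background and the read depth are not given in the sources used here. The authors deposited TPM in 1 table, of which 1 further column of forebrain values was not used. The 8 control and MS-275 columns sum to between 998182 and 999495, with 13444 to 14854 genes at 1 TPM or more.

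Genes were placed by symbol or unique synonym in RefSeq on GRCm38.p6, which gave positions for 13903 of 14857 tested genes. That table gives no strand, so either end of a gene counts. RNA was tested two-sided with limma 3.58.1 (R 4.3.3) on log2(TPM + 1), with eBayes and trend, in 1 fit of 3 groups, at an adjusted p of 0.05. A fold change on this scale understates the change of low genes. Peak comparisons have no test. On simulated data for MS-275 against control, limma recovered 54% of 50 genes changed 1.25-fold, 78% at 1.5-fold and 100% at 2-fold and 4-fold, and called 9 of 14841 unchanged genes. The changed genes left out those of low mean TPM, so recovery of low genes was not tested. They were a small part of all genes, while 65.1% of tested genes were called in the data. Overlaps were checked against bedtools 2.31.1. Wilson intervals came from SciPy 1.17.1.

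The replicate numbers pair the samples: deviations from the group means correlated at 0.119 to 0.241 in the 4 same-numbered pairs of control and MS-275 libraries, and at -0.197 to 0.0993 in the 12 other pairs. The series' design text calls the RNA libraries biological replicates, and the source of the pairing is not given in the sources used here. Named genes are, per class, the 4 with the largest change in each direction past the threshold with groups apart and a mean of at least 5 TPM, members of each list by smallest adjusted p or highest level, the class I deacetylases, the widest peaks and the densest 1 Mb windows. The members, lists and rules were chosen with earlier results of these data known. A few genes that the rule names are not reported here. Alternatives for overlap, gene assignment, pseudocount, filter, scaling, model and single libraries were tried.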

Additional observations from a re-analysis of the deposited data

Results flagged for a closer look

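Among 124 combinations of a named gene and a group of 4 libraries, 3 had 1 library far from the other 3, where chance gives about 1 in 20. H2-DMa was at 5.24 TPM in 1 control library and between 2.97 and 3.05 TPM in the others. Kif11 was at 107.4 TPM in 1 control library and between 109.5 and 109.9 TPM in the others. Brd2 was at 119.97 TPM in 1 MS-275 library and between 111.7 and 112.8 TPM in the others. For each of these 3 genes the MS-275 and control libraries did not overlap, which the rule that chose H2-DMa required. Kif11 and Brd2 were chosen by smallest adjusted p, which favours such a gap. Over all tested genes, all MS-275 libraries lay above all controls for 33.6% and below for 24.9%.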

How the results depend on the processing

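The overlap shares depend on the rule. Control peaks overlapped (17.1%) and MS-275 peaks overlapped (50.9%) became 11.4% and 42.6% with 50% of the peak covered, 9.63% and 29.1% with 50% reciprocal overlap, 30.8% and 65.5% with a gap of up to 1 kb, 25.6% and 26.6% for the widest 4000 peaks of each list, and 5.09% and 36.5% for peaks of 500 bp or more. Genes in both, MS-275 only and control only numbered 123, 156 and 1022 where the peak had to cover the gene end, and 669, 965 and 1716 for the widest 4000 peaks. Genes in both numbered 3155 by gene body and 902 when classed by peaks.

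The share of MS-275-only genes that rose stayed above the share that fell under each alternative run. That order alone does not set the class apart. It also held for all tested genes (37.4% and 27.6%) and for genes weighted to the same control TPM (46.7% and 18.3%). Shares weighted in this way were worked out for the main classes only. Their percent higher (65.3) was 50.0 where the peak covers the gene end, 71.9 by gene body, 52.0 for the widest 4000 peaks, 54.9 without the filter on low values and, chosen after seeing the data, 72.3 by RefSeq start. Their percent lower (10.3) was 16.9, 7.40, 19.7 and 7.55 in the first 4 of these. Their median (0.67) was 0.72 with a 5 kb limit, 0.30 where the peak covers the end, 0.81 by gene body, 0.25 for the widest 4000 peaks, 0.61 with median-of-ratios scaling, 0.44 without the filter, 0.81 with a pseudocount of 0.1 and, chosen after seeing the data, 0.81 by RefSeq start and 0.75 for peaks over 1 kb from any control peak. Without single libraries the percent higher ran from 63.1 to 66.3.

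For genes in both, percent higher and lower (36.5 and 32.2) were 21.6 and 38.2 where the peak covers the end, 29.7 and 38.3 for the widest 4000 peaks, 30.1 and 38.2 with median-of-ratios scaling and 32.1 and 28.9 without the filter, and percent higher ran from 33.4 to 35.5 without single libraries. Their median (0.02) was -0.084 where the peak covers the end, 0.060 by gene body, -0.056 for the widest 4000 peaks, 0.057 when classed by peaks and -0.048 with median-of-ratios scaling. For control only, percent higher and lower (29.7 and 38.4) were 27.0 and 39.9, 26.6 and 42.9, 25.2 and 44.8, and 26.6 and 34.3 in the same 4 settings, with ranges of 27.8 to 29.1 and 36.7 to 37.4 without single libraries, and the median (-0.05) was -0.098, -0.091, -0.119 and -0.032. The cause of these moves was not tested.

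With the replicate block, 5657 genes rose and 4216 fell, MS-275-only genes were 66.3% higher and 11.1% lower, and the block changed the call of no named gene reported here. Hdac8 (0.01, no call) reversed to -0.057 with median-of-ratios scaling and ran from -0.064 to 0.083 without single libraries, with a negative value without Control replicate 2, Control replicate 4 or MS-275 replicate 2. Hdac2 gained a call with median-of-ratios scaling (-0.11, adjusted p 0.0457). A call was lost in 37 combinations of a named gene and an alternative, all of Gadd45b, Mdm2, Ptprz1, Sgce and Hdac3. Unknown depth and 1 library per list limit every peak comparison.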
